A study of Homo sapiens with 21 samples.

Results

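Transcripts were compared between Hs578T cells treated with lapatinib (3.16 µM) together with a low dose of THZ531 (0.1 µM) and Hs578T cells treated with the solvent DMSO, both collected 8 h after treatment. The comparison used 3 libraries of the combination and 3 of DMSO, 6 of the 21 libraries of the series, and covered the 16036 genes that passed a filter on low counts out of 28395 genes in the deposited table. Libraries of lapatinib alone (3.16 µM) and of THZ531 alone at 0.1 µM, 3 each, were used to ask whether the combination differed from the sum of its parts, and 3 of THZ531 alone at 1.0 µM were set beside it. Hs578T is a long-established line of triple-negative breast cancer cells, so each group represents 1 cell line at 1 time after treatment, and per the study's legends the replicates came from 3 independent experiments. The libraries were made from polyA-selected RNA without keeping the strand.

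THZ531 is a covalent inhibitor of CDK12 and CDK13, a pair of kinases that bind cyclin K and phosphorylate the tail of RNA polymerase II while it elongates transcripts. Loss of CDK12 activity is known to lower the expression of long genes and of DNA repair genes, often through premature polyadenylation inside introns. Lapatinib inhibits the receptor tyrosine kinases EGFR and ERBB2, which signal through RAS and the MAP kinases ERK1 and ERK2. It is also known to block ABCG2, a pump that carries drugs out of cells.

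Depth was even between the groups, with 103120049 to 105119748 counts per combination library and 106023299 to 112229052 per DMSO library. The correlation of log2 CPM (counts scaled to library size) between replicates was 0.9904 to 0.9945 within these 2 groups. Mesenchymal markers were abundant in all 6 libraries, with VIM between 7333 and 8774 CPM of the library total, and the other marker lists were only in part near 0. Of the luminal markers EPCAM, PGR and KRT19 were each at 6 counts or fewer and CDH1 and ESR1 below 0.5 CPM, but KRT8 lay between 22.2 and 30.3 CPM, GATA3 between 10.1 and 20.7 CPM and FOXA1 between 4.29 and 6.65 CPM. The T cell marker CD3E was at 0 counts, the immune marker PTPRC between 1.02 and 1.79 CPM and the endothelial marker CDH5 at 2 counts or fewer, whereas CD68, a lysosomal protein abundant in macrophages, lay between 114 and 158 CPM. The 13 mRNAs encoded by mitochondrial DNA took 1.60% ± 0.139 (SD, n = 3) of the counts in the combination and 1.25% ± 0.0895 (n = 3) in DMSO. All CPM values below are scaled by TMM, a trimmed mean of log ratios between libraries, which centred the changes of all genes at a median log2 fold change (FC) of -0.01. Scaling to the 13 mitochondrial mRNAs instead moved that median by -0.68, so a log2 FC between 0 and 0.68 is positive relative to the bulk of the genes and negative relative to the mitochondrial mRNAs. The amount of RNA per cell was not measured, and in bulk samples fewer cells of one state and less RNA per cell cannot be told apart.

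Which genes changed under the combination was tested with edgeR's quasi-likelihood test, adjusted by the Benjamini-Hochberg method over the 16036 genes, and a gene was called at an adjusted p under 0.05 and a log2 FC beyond 1. The combination lowered 3422 genes (21.3% of those tested) and raised 1267 (7.90%). At any size of change, 6064 genes were lower (37.8%) and 5500 were higher (34.3%). Of the called genes 73.0% were lower, against 91.9% with the mitochondrial scaling, 85.7% with library size alone and 61.3% with upper-quartile scaling. Many of the raised genes were rare transcripts: among the 10891 genes whose mean log2 CPM was 1 or more, 21.4% were called lower but only 3.19% higher. In 121 of the raised genes no DMSO library held more than 3 counts, which may stand for fewer fragments, since even numbers were in excess among low counts and both ends of a fragment may have been counted.

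The falls and rises differed in the kind of gene. Among protein-coding genes that span less than 10 kb of the genome, 16% were lower (95% Wilson interval 14.7 to 17.4) and 12% higher (10.8 to 13.2), with a median log2 FC of 0.34 over 2828 genes. Among the 3886 genes of 10 to 30 kb, 25.6% were lower (24.2 to 27.0) and 4.92% higher (4.28 to 5.64). Genes over 100 kb were lower in 20.9% (19.4 to 22.5), fewer than in the classes of 10 to 30 kb and of 30 to 100 kb (25%, 23.7 to 26.3), so the share of falls did not increase steadily with span. The length of the mature transcript gave a steadier order, as 3.75% of genes with transcripts under 1000 nt were lower and 15.1% higher, against 28% lower and 2.52% higher among those over 4000 nt. Across 13619 genes, which are not independent replicates, Spearman's rho with the log2 FC was -0.27 for mature length, -0.15 for span and -0.03 for the number of exons. Mean expression was itself related to the log2 FC (rho = 0.23), and its part in these orders was not tested. These intervals cover counting error only.

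**Figure D1:**
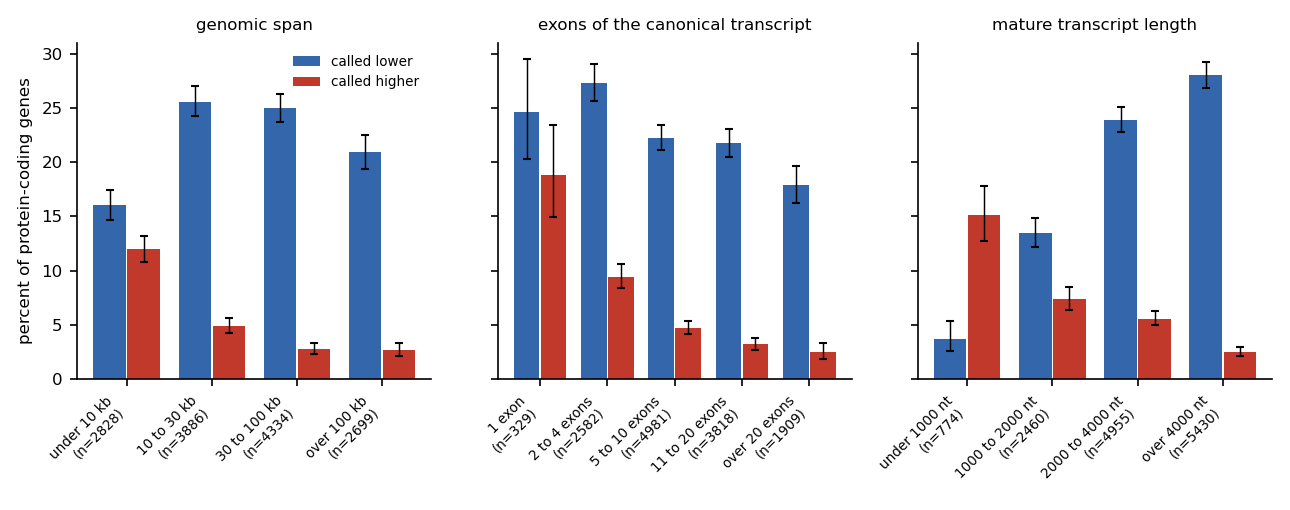
Percent of protein-coding genes called lower (blue) and higher (red) under the combination by genomic span, by exons of the canonical transcript and by mature transcript length, with 95% Wilson intervals as error bars and the number of genes under each class. The red bars shrink from left to right in all 3 panels, and the blue bars grow with mature length from 3.75% to 28%.

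The steepest falls among protein-coding genes whose mean log2 CPM was 1 or more took mean levels of 10.3 to 33.6 CPM in DMSO down to between 0.477 and 1.38 CPM. KAT14, a subunit of a histone acetyltransferase complex, lies at chr20:18137153-18188035 on GRCh38 and fell 33.1-fold. Its level was 15.3, 16.1 and 16 CPM in the DMSO libraries and 0.459, 0.481 and 0.490 CPM with the combination (log2 FC -5.05, SE 0.11, adjusted p = 6.13e-17). ZNF609, a zinc finger gene, had 27.8, 37.5 and 28.6 CPM in DMSO and 0.645, 1.19 and 1.20 CPM with the combination (log2 FC -4.95, SE 0.29, adjusted p = 5.94e-12). Every combination library was below every DMSO library for both genes. The others in order of their change were PRR14L (log2 FC -4.74), PAFAH2, an enzyme that degrades platelet-activating factor (-4.71), KRCC1 (-4.61), the transcription factor IRF2 (-4.60), C21orf91 (-4.52), ZNF839 (-4.31), CASP8AP2, a protein needed for histone gene expression (-4.26), and the homeobox gene HOMEZ (-4.26). KAT14, C21orf91 and HOMEZ overlap another gene of the table, so their unstranded counts can hold reads of that gene.

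The largest rises were led by SNX32 and by genes that respond quickly to stimuli. SNX32, a sorting nexin of endosomes, had 0.637, 0.578 and 0.621 CPM in DMSO and 5.47, 10.9 and 11 CPM with the combination (log2 FC 3.90, SE 0.23, adjusted p = 7.48e-12). RASD1, a small GTPase induced by glucocorticoids, had 0.758, 0.923 and 0.749 CPM in DMSO and 8.43, 11.9 and 11.7 CPM with the combination (log2 FC 3.72, SE 0.23, adjusted p = 1.56e-11). In both genes replicate 1 of the combination was lowest of its group and still above every DMSO library. FOS (log2 FC 3.26) and JUNB (2.92) encode subunits of the transcription factor AP-1, SIK1 (2.84) is a salt-inducible kinase, ATF3 (2.70) a stress-induced transcription factor and GADD45B (2.65) a stress sensor that acts on MAP kinase pathways. MCMDC2 (2.86) overlaps the snoRNA host gene SNHG6, JUNB overlaps HOOK2, and DIPK2A (2.72) and IER5L (2.66) complete the 10.

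**Figure D2:**
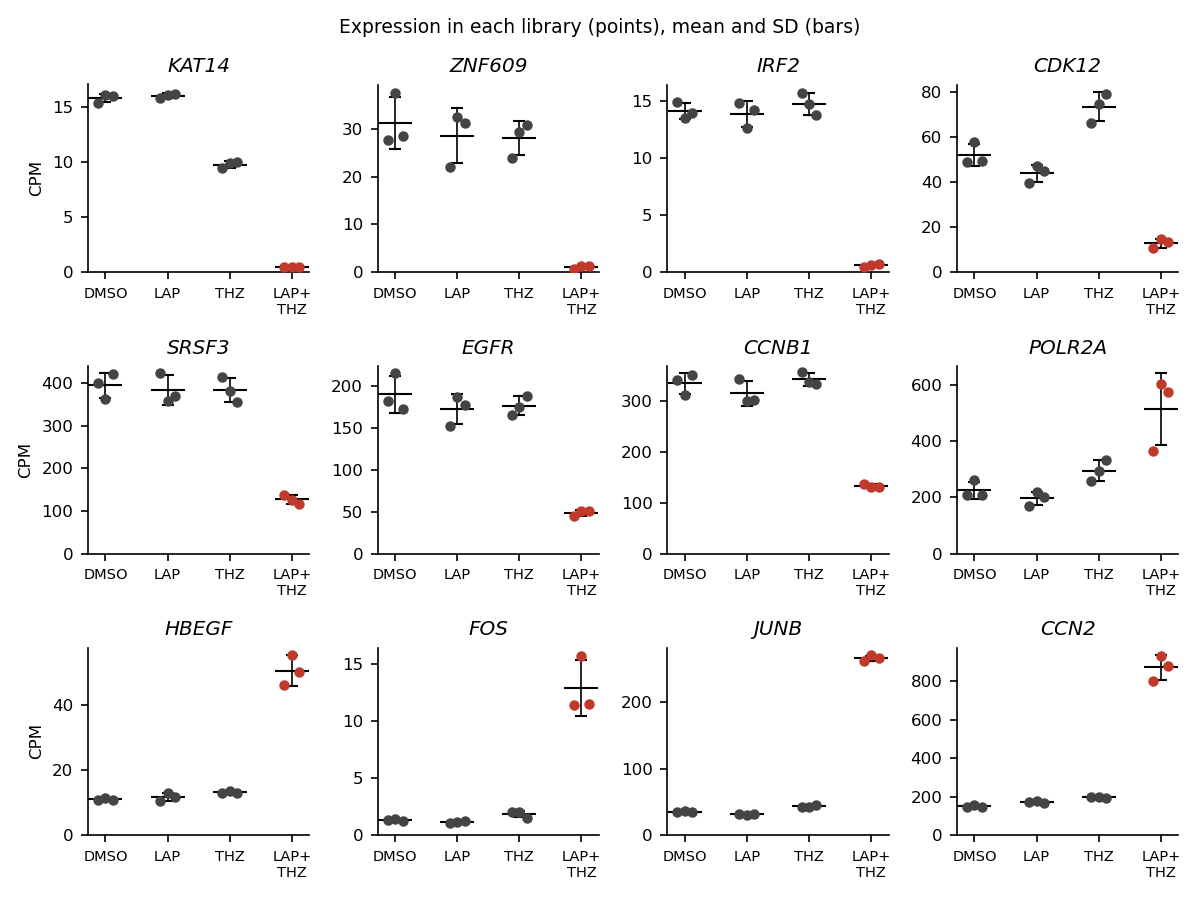
CPM of 12 genes in each library of DMSO, lapatinib alone (LAP), THZ531 alone at 0.1 µM (THZ) and the combination (LAP+THZ), as points, with the group mean and SD as bars and axes that start at 0. In every panel the 3 combination libraries (red) lie apart from the 9 others, below them in KAT14, ZNF609, IRF2, CDK12, SRSF3, EGFR and CCNB1 and above them in POLR2A, HBEGF, FOS, JUNB and CCN2.

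Immediate-early genes, which are transcribed within minutes of a stimulus without new protein, rose as a group in count: 13 of 27 were called higher (48.1%) against the 7.90% of all genes, 2 were called lower, and the median log2 FC was 0.93. The promoters of 4 of those that rose are shown to let their sequences be compared, each as the 250 bases before the RefSeq start on GRCh38.p14, 5′ to 3′ on the strand of the gene. Capitals mark matches to TATAAA, the core of the TATA box, and to the CArG box, the site bound by the serum response factor SRF, searched on both strands. The windows are FOS at chr14:75278578-75278827, JUNB at chr19:12791236-12791485, CCN2 at chr6:131951373-131951622 on the minus strand and EGR1 at chr5:138465229-138465478.
FOS: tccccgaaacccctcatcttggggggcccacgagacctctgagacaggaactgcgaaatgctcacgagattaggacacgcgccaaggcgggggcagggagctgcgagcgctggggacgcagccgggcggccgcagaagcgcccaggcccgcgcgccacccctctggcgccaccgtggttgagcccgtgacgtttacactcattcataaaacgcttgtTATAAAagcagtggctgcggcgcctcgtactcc
JUNB: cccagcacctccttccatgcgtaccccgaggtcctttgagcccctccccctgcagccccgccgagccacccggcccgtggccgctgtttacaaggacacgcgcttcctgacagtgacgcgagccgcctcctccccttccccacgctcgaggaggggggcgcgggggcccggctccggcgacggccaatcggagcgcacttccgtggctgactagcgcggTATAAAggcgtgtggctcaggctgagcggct
CCN2: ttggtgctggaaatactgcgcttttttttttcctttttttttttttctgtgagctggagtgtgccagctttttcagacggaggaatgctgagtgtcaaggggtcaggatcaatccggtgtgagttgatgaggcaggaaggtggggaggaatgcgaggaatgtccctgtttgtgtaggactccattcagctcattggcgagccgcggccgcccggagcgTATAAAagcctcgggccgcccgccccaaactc
EGR1: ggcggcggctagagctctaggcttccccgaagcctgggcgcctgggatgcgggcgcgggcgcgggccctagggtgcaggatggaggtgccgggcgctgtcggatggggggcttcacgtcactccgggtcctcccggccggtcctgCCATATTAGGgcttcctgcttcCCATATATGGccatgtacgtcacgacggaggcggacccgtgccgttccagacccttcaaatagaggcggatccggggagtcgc
TATAAA stood at -33 to -28 in FOS, -31 to -26 in JUNB and -32 to -27 in CCN2, counted from the start, and EGR1 held 2 CArG boxes at -105 to -96 and -83 to -74. Of the 10 immediate-early genes called higher whose promoter was in the table, 4 held TATAAA and 1 a CArG box, against 11.1% and 1.14% of all 27305 promoters of this length. Every window shown holds a marked match, so the windows shown do not stand for all 10. Among those not shown, FOSB held TATAAA, and ATF3, IER2, KLF4, IER5 and EGR2 held neither. TATAAA was found in 10.7% of the promoters of genes called higher, 4.87% of those called lower and 6.19% of all tested genes. The full cAMP response element TGACGTCA was in 0 of the 10 and in 1.77% of all promoters. Only these exact letters were searched, so shorter or variant forms, such as the TGACGT in the FOS window, were not counted. Among the 11 other tested immediate-early genes TATAAA was found in 1, a CArG box in 1 and the cAMP response element in 2. These matches describe letters only, and TATAAA was chosen after the sequences were seen. Only 1 start per gene was used, and sites further upstream or at other starts were not searched.

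FOS had 1.34, 1.42 and 1.27 CPM in DMSO and 11.4, 15.7 and 11.5 CPM with the combination (log2 FC 3.26, SE 0.22, adjusted p = 5.58e-11). JUNB had 34.2, 37.0 and 34.9 CPM in DMSO and 263, 271 and 267 CPM with the combination (log2 FC 2.92, SE 0.07, adjusted p = 6.13e-17). CCN2, a matricellular protein and a target of YAP and SRF, went from 145, 158 and 146 CPM to 802, 929.9 and 879.5 CPM (log2 FC 2.54, SE 0.09, adjusted p = 1.06e-14). All 3 genes were well apart between the groups. EGR1 (log2 FC 1.92), IER2 (1.91), NR4A2 (2.27), FOSB (1.87), KLF4 (1.66), IER5 (1.64) and CCN1 (1.61) also rose. JUN, the main partner of FOS, did not pass the test at a log2 FC of -0.05 (95% confidence interval -0.30 to 0.19). FOSL1, another AP-1 subunit, fell from 231, 289 and 228 CPM to 54.7, 86.2 and 72.7 CPM (log2 FC -1.81, SE 0.16, adjusted p = 4.59e-09), and the nuclear receptor NR4A1 fell by 1.39 on the log2 scale. Under the mitochondrial scaling 9 of the 27 were still called higher and 3 lower.

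Among the kinases that drive transcription, CDK12, the target of THZ531, fell 4.04-fold, from 48.8, 57.5 and 49.3 CPM in DMSO to 10.7, 14.5 and 13.3 CPM with the combination (log2 FC -2.02, SE 0.15, adjusted p = 1.99e-10). With THZ531 alone at 0.1 µM the CDK12 transcript was instead higher than in DMSO, at 66.3, 74.7 and 78.9 CPM (log2 FC 0.50, adjusted p = 0.039). CDK13, the related kinase, had 66.6, 73.5 and 65.8 CPM in DMSO and 38.8, 59.3 and 55.0 CPM with the combination (log2 FC -0.43, adjusted p = 0.03), and its call was lost without DMSO replicate 2 (adjusted p = 0.088) or replicate 1 of the combination (0.17). Their cyclin CCNK had a log2 FC of 0.28 (adjusted p = 0.043), which was lost without DMSO replicate 1 or 3 or without replicate 2 or 3 of the combination (adjusted p up to 0.18) and was negative with library size alone (-0.04) and with the mitochondrial scaling (-0.40). Of the 27 transcriptional CDKs and partners, 3 were called lower (11.1%) and 2 higher (7.41%), against 21.3% and 7.90% of all tested genes, with a median log2 FC of -0.11. The called falls were CDK12, CDK7 and MEPCE, of which CDK7 had only 1.29 CPM in DMSO and was not called without DMSO replicate 1 (adjusted p = 0.057). MEPCE, which caps the 7SK RNA that holds the kinase P-TEFb inactive, fell from 126, 135 and 128 CPM to 28.2, 37.3 and 36.4 CPM (log2 FC -1.93, SE 0.13, adjusted p = 8.54e-11). HEXIM1, an inhibitor of P-TEFb and a known marker of its release, had 23.9, 25.5 and 24.1 CPM in DMSO and 39.2, 73.0 and 73.8 CPM with the combination (log2 FC 1.34, SE 0.24, adjusted p = 4.34e-05).

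The subunits of RNA polymerase II moved mostly upwards relative to other genes. Of 12 subunits, 8 were higher (66.7%, against 34.3% of all tested genes) and 2 lower (16.7%, against 37.8%) at any size. Beyond a log2 FC of 1, 1 was higher and 1 lower (8.33% each), against 7.90% and 21.3% of all tested genes. The median log2 FC was 0.63, which became -0.05 with the mitochondrial scaling. POLR2A, the catalytic subunit whose tail CDK12 phosphorylates, had 209, 262 and 208 CPM in DMSO and 367, 604 and 576 CPM with the combination (log2 FC 1.19, SE 0.19, adjusted p = 1.35e-05). Replicate 1 of the combination was the lowest of its group and above all DMSO libraries. POLR2D, a small subunit, went the other way, from 47.9, 51.6 and 49.0 CPM to 11.1, 13.3 and 12 CPM (log2 FC -2.03, SE 0.09, adjusted p = 2.34e-13).

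Factors that cleave and polyadenylate transcripts were called lower in 10 of 24 (41.7%, where 21.3% of all tested genes were), and their median log2 FC was -0.54. CSTF2T, a paralog of the cleavage stimulation factor that binds downstream of the poly(A) signal, fell from 36.6, 34.6 and 36.3 CPM to 4.38, 6.22 and 5.07 CPM (log2 FC -2.78, SE 0.16, adjusted p = 6.95e-12). CPSF7, a subunit of the CFIm complex that selects poly(A) sites, fell from 123, 127 and 120.2 CPM to 19.0, 22.6 and 20.4 CPM (log2 FC -2.58, SE 0.11, adjusted p = 5.14e-14). PCF11, which couples cleavage to termination, fell by 2.09 on the log2 scale, CSTF1 by 2.37 and PAPOLG, a poly(A) polymerase, by 2.30. The rises were CPSF6 (log2 FC 1.01), the partner of CPSF7 in CFIm, and SCAF8 (1.26), which is known to suppress the use of early poly(A) sites. SCAF8 had 37.6, 39.8 and 37.3 CPM in DMSO and 71.3, 107 and 96.8 CPM with the combination, without overlap between the groups. The number of factors called higher was 1 instead of 2 without DMSO replicate 3.

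Of 18 SR proteins and splicing kinases, 3 were called lower (16.7%) and 1 higher (5.56%), both below the 21.3% and 7.90% of all tested genes (median log2 FC -0.24). SRSF3, an SR protein that also takes part in RNA export, was among the 10 lowered genes with the highest CPM and went from 401, 364 and 423 CPM to 138, 127 and 117 CPM (log2 FC -1.64, SE 0.08, adjusted p = 6.56e-13). SRSF10 fell by 1.16 on the log2 scale and the kinase CLK4 by 1.11. CLK1, a kinase of SR proteins, had 17.3, 18.7 and 16.4 CPM in DMSO and 36.3, 39.2 and 38.1 CPM with the combination (log2 FC 1.12, adjusted p = 5.35e-08).

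Genes of homologous recombination and the Fanconi anemia pathway repair double-strand breaks and crosslinks. They were called lower in 18 of 34 (52.9%, against 21.3% of all tested genes) and higher in 0 (against 7.90%), with a median log2 FC of -1.24. The largest fall was in SLX4, a scaffold for nucleases that resolve DNA junctions, from 14.2, 19.9 and 14.7 CPM to 0.655, 1.12 and 1.36 CPM (log2 FC -3.96, SE 0.24, adjusted p = 1.42e-11). BRCA2, a central factor of homologous recombination, went from 19.9, 24 and 18.3 CPM to 2.98, 3.97 and 3.24 CPM (log2 FC -2.61, SE 0.19, adjusted p = 1.44e-10). BRCA1 fell by 1.59 on the log2 scale and was already lower with THZ531 alone at 0.1 µM (log2 FC -0.84, adjusted p = 0.000244). XRCC2 (-3.07), the helicase BLM (-2.83) and UBE2T (-2.19), the ubiquitin-conjugating enzyme of the Fanconi pathway, fell as well. Not all members moved this way. FANCA rose in every combination library, from 16.8, 17.5 and 17.4 CPM to 29.9, 30.4 and 31.0 CPM (log2 FC 0.82, SE 0.06, adjusted p = 6.16e-10), a rise that was not called with the mitochondrial scaling (adjusted p = 0.41), and FANCD2 had a log2 FC of -0.13 that did not pass the test (adjusted p = 0.077).

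In the DNA damage checkpoint list 9 of 24 genes were called lower (37.5%, against 21.3% of all tested genes) and 0 higher (against 7.90%). The median log2 FC was -0.80. ATRIP, the partner of the checkpoint kinase ATR, had a log2 FC of -3.62 and ETAA1, an activator of ATR, one of -3.20. ATR itself went from 74.2, 69.4 and 69.1 CPM to 27.8, 30.9 and 26.9 CPM (log2 FC -1.31, SE 0.06, adjusted p = 5.45e-13). ATM, the kinase that answers double-strand breaks, differed in direction, with 62.4, 63.6 and 58.1 CPM in DMSO and 80.3, 70.4 and 74.0 CPM with the combination (log2 FC 0.29, adjusted p = 0.001), and it was lower with library size alone (log2 FC -0.04) and with the mitochondrial scaling (-0.39). The phosphatases CDC25A, CDC25B and CDC25C, which release the brake on CDKs, fell by 1.5, 1.69 and 2.23 on the log2 scale. TP53BP1 was also called (log2 FC -1.09), as were RAD17 and MDC1, which had 1.28 and 0.568 CPM in DMSO. The call of MDC1 was lost without DMSO replicate 2 or without replicate 1 or 2 of the combination (adjusted p up to 0.18).

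Replication genes were divided. Of 32 genes of licensing and the replication fork, 7 were called lower (21.9%, near the 21.3% of all genes) and 0 higher. At any size 17 were lower (53.1%, against 37.8% of all genes) and 11 higher (34.4%, near the 34.3% of all genes). GINS1, a subunit of the replicative helicase, fell 12.2-fold, from 55.5, 56.1 and 55.0 CPM to 5.30, 4.0 and 4.34 CPM (log2 FC -3.61, SE 0.13, adjusted p = 5.66e-15). The origin recognition subunit ORC2 fell by 2.23 and the kinase CDC7, which fires origins, fell by 2.04 on the log2 scale. PCNA, the sliding clamp, had 87.8, 70.2 and 87.5 CPM in DMSO and 166, 159 and 149 CPM with the combination (log2 FC 0.95, adjusted p = 8.33e-09).

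Of 27 genes that control entry into S phase, 9 were called lower (33.3%, against 21.3% of all tested genes) and 4 higher (14.8%, against 7.90%). The median log2 FC was -0.56. The falls included 7 members of the E2F family, among them the repressor E2F7, which went from 93.4, 98.7 and 87.3 CPM to 11.9, 13.9 and 12.2 CPM (log2 FC -2.88, SE 0.11, adjusted p = 8.31e-15), E2F8 (log2 FC -2.98) and the activator E2F3 (-2.07). E2F1 had a log2 FC of 0.01 and did not pass the test (adjusted p = 0.95). Cyclin E2 (CCNE2), which activates CDK2 at the start of S phase, fell 5.35-fold. The called rises were all CDK inhibitors: CDKN1A, which encodes p21 and had 15.1, 14.2 and 13.8 CPM in DMSO and 29.9, 39.0 and 35.3 CPM with the combination, CDKN2D (log2 FC 1.35), CDKN2A (1.85) and CDKN1C (1.65), the last with 0.139 CPM in DMSO. The call of CDKN1C was lost without DMSO replicate 1 or 3 or without replicate 2 of the combination (adjusted p up to 0.098). CDKN1A was also higher with THZ531 alone at 0.1 µM (log2 FC 0.59, adjusted p = 0.0007).

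Genes of mitosis were called lower in 11 of 24 (45.8%, against 21.3% of all tested genes) and higher in 0 (against 7.90%), with a median log2 FC of -0.94. AURKB, a kinase of the chromosomal passenger complex, went from 81.6, 84.0 and 84.7 CPM to 18.6, 19.3 and 17.8 CPM (log2 FC -2.17, SE 0.07, adjusted p = 3.01e-15). Cyclin B1 (CCNB1) went from 342, 313 and 353 CPM to 137, 132 and 132 CPM (log2 FC -1.33, SE 0.07, adjusted p = 3.65e-12), whereas its kinase CDK1 did not pass the test (log2 FC 0.15, adjusted p = 0.054). MKI67, the proliferation marker Ki-67, varied most between replicates, with 248, 472 and 265 CPM in DMSO and 72.9, 193 and 188 CPM with the combination. The groups did not overlap, but its call (log2 FC -1.12, adjusted p = 0.028) was lost without DMSO replicate 2 (adjusted p = 0.15) or replicate 1 of the combination (0.13).

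Zinc finger genes named ZNF, most of which encode DNA-binding repressors, formed the list with the largest share of falls beyond a log2 FC of 1. Of 455 tested, 294 were called lower (64.6%, against 21.3% of all tested genes) and 8 higher (1.76%, against 7.90%), with a median log2 FC of -1.54. At any size 356 were lower (78.2%, against 79.2% of the mitosis genes and 37.8% of all tested genes). Another 35 were higher at any size (7.69%, against 34.3% of all tested genes). The largest falls beside ZNF609 were ZNF440 (log2 FC -4.64), ZNF518B (-4.62) and ZNF564 (-4.60). ZNF652, chosen after its values were seen as the largest rise with at least 1 CPM in DMSO (log2 FC 1.26), had 17.1, 19.0 and 15.9 CPM in DMSO and 36.5, 44.9 and 43.6 CPM with the combination. The number called higher ranged from 5 without DMSO replicate 3 to 11 without DMSO replicate 2. Among 38 chromatin modifiers 14 were called lower (36.8%, against 21.3% of all tested genes) and 2 higher (5.26%, against 7.90%). NSD1, a histone H3 lysine 36 methyltransferase, fell from 105, 124 and 104 CPM to 17.4, 19.4 and 19.4 CPM (log2 FC -2.56, SE 0.10, adjusted p = 3.62e-14), SUZ12, a core subunit of the Polycomb complex PRC2, fell by 1.61 on the log2 scale and KDM5A, a histone demethylase, by 1.83. EZH2, the catalytic subunit of PRC2, had a log2 FC of 0.54 (adjusted p = 0.000168), which the mitochondrial scaling turned to -0.15. The 2 called rises, CHD2 and CHD7, were down to 0 without DMSO replicate 3, and CHD7 had 0.524 CPM in DMSO. HOX genes, which set positional identity, were called higher in 6 of 29 (20.7%, against 7.90% of all tested genes), such as HOXA9 (log2 FC 1.76) and HOXA5 (1.45), and lower in 6 (20.7%, near the 21.3% of all tested genes), such as HOXC6 (-1.94).

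The receptor that lapatinib targets was itself lower. EGFR, at chr7:55019017-55211628, went from 183, 216 and 173 CPM to 44.4, 50.4 and 50.7 CPM (log2 FC -1.97, SE 0.10, adjusted p = 7.03e-13), with the groups far apart. EGFR overlaps the antisense gene EGFR-AS1, whose reads cannot be told apart without strand. ERBB2, the other target, had a log2 FC of -0.44 (adjusted p = 0.0017). HBEGF, a ligand of EGFR, moved the opposite way, from 10.8, 11.3 and 10.8 CPM to 46.1, 55.5 and 50.3 CPM (log2 FC 2.21, SE 0.10, adjusted p = 1.01e-13). Of 14 tested ERBB receptors, ligands and inhibitors, 4 were called lower (28.6%, against 21.3% of all tested genes) and 2 higher (14.3%, against 7.90%). However, EPGN, NRG2 and BTC among them lay below 0.5 CPM. The call of NRG2 was lost without any of 4 libraries (DMSO replicate 1 or 2, or replicate 2 or 3 of the combination, adjusted p up to 0.18). No gene of the RAS and MAP kinase core was called in either direction (0 of 19). At any size 6 were lower (31.6%, against 37.8% of all tested genes), among them SOS1 (log2 FC -0.79). Another 9 were higher at any size (47.4%, against 34.3%), among them GRB2 (0.78). With the mitochondrial scaling 10 of the 19 were lower and 0 higher at any size. Of 16 feedback genes and ETS factors downstream of ERK, 4 were called lower (25%, near the 21.3% of all tested genes) and 1 higher (6.25%), and the number called lower ranged from 3 without DMSO replicate 2 to 5 without replicate 2 of the combination. The largest change was a rise of SPRY3, a Sprouty inhibitor of receptor signalling that overlaps TMLHE, at very low levels of 0.0403, 0.0345 and 0.0681 CPM in DMSO and 0.546, 0.700 and 0.713 CPM with the combination (log2 FC 3.75, SE 0.46, adjusted p = 3.86e-07). SPRED3, an inhibitor of the same kind, fell by 2.23 on the log2 scale and SPRY4 by 1.06. ETV5 went from 115, 124 and 121 CPM to 35.4, 36.4 and 35.6 CPM (log2 FC -1.75, SE 0.05, adjusted p = 1.27e-15) and ETV1 fell by 1.67, while DUSP6, a phosphatase of ERK that is used as a readout of its activity, had a log2 FC of 0.29 with TMM, -0.04 with library size alone and -0.39 with the mitochondrial scaling. Its call with TMM (adjusted p = 0.008) was lost without replicate 2 of the combination (adjusted p = 0.069).

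In the BCL2 family and the inhibitors of apoptosis, 7 of 19 genes were called lower (36.8%, against 21.3% of all tested genes) and 2 higher (10.5%, against 7.90%). XIAP, which inhibits caspases, went from 45.2, 45.2 and 42.0 CPM to 12.9, 15.0 and 12.3 CPM (log2 FC -1.72, SE 0.11, adjusted p = 2.3e-11), and BIRC3 and BIRC2, ubiquitin ligases of the same family, fell by 2.41 and 1.17 on the log2 scale. MCL1, a short-lived survival protein, had 267, 249.6 and 261 CPM in DMSO and 167, 204 and 186 CPM with the combination (log2 FC -0.48, adjusted p = 0.0011). The called rises were the BH3-only genes BBC3 (log2 FC 1.98), which encodes PUMA, and PMAIP1 (1.12), which encodes NOXA. PMAIP1 had 12.6, 10.8 and 12 CPM in DMSO and 26.4, 27.0 and 23.6 CPM with the combination. BAK1, a pore-forming member that promotes death, fell by 1.25. In the MYC and MAX network 2 of 11 genes were called lower (18.2%, against 21.3% of all tested genes) and 2 higher (18.2%, against 7.90%), with a median log2 FC of -0.06. MYC rose from 65.8, 71.0 and 64.4 CPM to 142, 157 and 153 CPM (log2 FC 1.17, SE 0.09, adjusted p = 2.21e-10) and MLX fell by 2.09 on the log2 scale. The number called lower in that list was 1 instead of 2 without DMSO replicate 1.

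Targets of the stress factor ATF4 were called lower in 2 of 29 (6.90%) and higher in 2 (6.90%), below the 21.3% and 7.90% of all tested genes. At any size 16 rose (55.2%, against 34.3% of all tested genes). Their median log2 FC was 0.28, which became -0.40 with the mitochondrial scaling. ATF4 had 78.1, 86.0 and 80.3 CPM in DMSO and 173, 189 and 192 CPM with the combination (log2 FC 1.18, SE 0.20, adjusted p = 2.25e-05). It was nearly as high with lapatinib alone, at 175, 173 and 146 CPM (log2 FC 1.02, adjusted p = 0.028). DDIT4, an inhibitor of mTORC1, had a log2 FC of 2.31, and 1.45 with lapatinib alone. DDIT3, which encodes CHOP, fell against this direction, from 8.05, 7.24 and 6.34 CPM to 2.60, 3.68 and 3.61 CPM (log2 FC -1.13, SE 0.26, adjusted p = 0.000581), although its mean with lapatinib alone was 13.5 CPM. The number called lower in this list was 1 instead of 2 without replicate 1 of the combination. Of 23 genes of sterol and fatty acid synthesis, 2 were called lower (8.70%, below the 21.3% of all tested genes) and 0 higher. MVK, mevalonate kinase, fell from 12.3, 13.6 and 14 CPM to 2.74, 1.99 and 1.90 CPM (log2 FC -2.59, SE 0.12, adjusted p = 3.48e-13). INSIG1, which holds back sterol synthesis, was lower with the combination (log2 FC -0.65) and higher with lapatinib alone (log2 FC 0.80, adjusted p = 7.41e-05).

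Among 18 cytokines and genes of NF-kB feedback, 4 were called lower (22.2%, near the 21.3% of all tested genes) and 3 higher (16.7%, against 7.90%). LIF, a cytokine of the IL-6 family, went from 9.03, 12.8 and 9.38 CPM to 1.44, 2.57 and 1.98 CPM (log2 FC -2.38, SE 0.16, adjusted p = 8.29e-11) and NFKBIE, an inhibitor of NF-kB, fell by 2.55 on the log2 scale, while the chemokine CCL2 rose from 2.73, 2.56 and 2.06 CPM to 10.7, 6.85 and 8.19 CPM (log2 FC 1.81, SE 0.21, adjusted p = 2.64e-07). The number called lower was 7 without replicate 2 of the combination. Extracellular matrix and mesenchymal genes were called lower in 2 of 27 (7.41%, below the 21.3% of all tested genes), TWIST2 (log2 FC -2.0) and ZEB2 (-1.87), both transcription factors of the mesenchymal state. 15 of the 27 rose at any size (55.6%, against 34.3% of all tested genes), with a median log2 FC of 0.49. Under the mitochondrial scaling 0 were called higher at any size, and the median was -0.19. AHRR, the repressor of the aryl hydrocarbon receptor, fell from 96.0, 113 and 101 CPM to 25.5, 23.9 and 27.1 CPM (log2 FC -2.02, SE 0.09, adjusted p = 1.2e-13), and the receptor AHR had a log2 FC of 1.01 (adjusted p = 0.000276). In that list of 8 genes 2 were called lower (25%, near the 21.3% of all tested genes) and 1 higher (12.5%, against 7.90%). The number called lower was 1 without DMSO replicate 1, and the number called higher was 0 without DMSO replicate 3 and 2 without DMSO replicate 1. Of 34 ABC transporters 2 were called lower (5.88%) and 1 higher (2.94%), both below the shares of all tested genes, which became 1 lower and 2 higher without replicate 1 of the combination and 0 higher without DMSO replicate 2. ABCG2 did not pass the test, with 26, 20.8 and 24.9 CPM in DMSO and 31.4, 24.5 and 24.9 CPM with the combination (log2 FC 0.17, 95% confidence interval -0.07 to 0.42). Among 27 genes of the BBSome and of intraflagellar transport, which serve the primary cilium, 3 were called lower (11.1%, below the 21.3% of all tested genes): BBS12 (log2 FC -4.91), BBS10 (-2.48) and TTC8 (-1.44).

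Small and abundant transcripts rose together by a modest amount relative to all genes, of which 34.3% were higher at any size. Of 80 cytosolic ribosomal protein genes 78 rose at any size, with a median of 0.84, but with the mitochondrial scaling only 1 rose and 1 fell. Beyond a log2 FC of 1 only 4 of these genes rose (5%, below the 7.90% of all tested genes). RPL26, a protein of the large subunit, had 471, 423 and 466 CPM in DMSO and 1033, 803 and 881 CPM with the combination. Of 80 nuclear genes of oxidative phosphorylation 73 rose (median 0.79), against 4 rises and 7 falls with the mitochondrial scaling. Beyond a log2 FC of 1, 7 of the 80 rose (8.75%, near the 7.90% of all tested genes). NDUFV3, an accessory subunit of complex I, was the 1 that fell (log2 FC -1.21, adjusted p = 8.79e-12). Of 34 proteasome subunits 27 rose (median 0.56), against 0 rises and 10 falls with the mitochondrial scaling, and PSMD5, a chaperone of proteasome assembly, was called lower (log2 FC -1.5). Without replicate 2 of the combination the rises beyond 1 were 8 for the ribosomal genes (1 without DMSO replicate 2) and 14 instead of 7 for the oxidative phosphorylation genes, and without replicate 1 the latter were 3. Mitochondrial ribosomal proteins, encoded in the nucleus, were near the shares of all tested genes, as 25 of 76 were lower (32.9%, against 37.8%) and 26 higher (34.2%, against 34.3%) at any size (median -0.03), and 54 lower and 0 higher with the mitochondrial scaling. MRPS31 fell by 2.03 on the log2 scale.

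Transcripts that normally lack a poly(A) tail were also among the rises. Replication-dependent histone genes, whose mRNAs end in a stem-loop, were called higher in 24 of 39 (61.5%, against 7.90% of all tested genes) and lower in 0 (against 21.3%). Their median log2 FC was 1.31, and 12 were still called higher with the mitochondrial scaling. H1-2 rose from 2.94, 2.50 and 3.02 CPM to 6.04, 5.79 and 5.67 CPM (log2 FC 1.05, SE 0.10, adjusted p = 1.85e-08), and H3C3 rose by 2.33 on the log2 scale at 0.472 CPM in DMSO. Near-identical histone copies can share reads. Small nucleolar and Cajal body RNAs were called higher in 46 of 147 (31.3%, against 7.90% of all tested genes) and lower in 2 (1.36%, against 21.3%). Under the mitochondrial scaling 19 were higher and 10 lower. Their host genes were called higher in 6 of 24 (25%, against 7.90%), or 1 with the mitochondrial scaling. SNHG20 (log2 FC 1.80) and SNHG9 (1.56) led the hosts. Most snoRNAs lie inside introns of their hosts, so reads of unspliced host RNA and of the snoRNA cannot be told apart in these counts.

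Translation initiation factors were called lower in 4 of 52 (7.69%) and higher in 1 (1.92%), both below the 21.3% and 7.90% of all tested genes. EIF5, a GTPase-activating protein of start codon recognition, was the lowered gene with the highest CPM of all, going from 582, 546 and 589.9 CPM to 256, 248 and 231 CPM (log2 FC -1.22, SE 0.07, adjusted p = 1.68e-12). EIF5 overlaps the snoRNA gene SNORA28. Other lowered genes of high CPM were STC2, a secreted glycoprotein (log2 FC -1.24), NRP1, a co-receptor for VEGF and semaphorins (-1.43), NFIC (-1.01), the nuclear export receptor XPO1 (-1.05), TAF2 (-1.09) and the ligand WNT5A (-1.37). The raised genes of highest CPM were FTL, the ferritin light chain, which went from 4539, 4631 and 4734 CPM to 9723, 8764 and 9477 CPM (log2 FC 1.01, SE 0.07, adjusted p = 9.39e-11), and the mitochondrial rRNA RNR2 (log2 FC 1.20). HSPA5, the endoplasmic reticulum chaperone BiP (1.48), PTMA (1.07), TMSB10 (1.04), CCN1, the redox protein TXN (1.10), CCN2, UQCRB (1.01) and the lactate transporter SLC16A1 (1.37) followed. With the mitochondrial scaling CCN2 (1.86) was the 1 of these 10 that stayed above a log2 FC of 1, and the other values ranged from 0.32 for FTL to 0.93 for CCN1.

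Whether the combination went beyond the sum of its parts was tested with the interaction, the log2 FC of the combination minus those of lapatinib alone and of THZ531 alone at 0.1 µM, all against the same DMSO libraries. The interaction was below -1 in 2942 genes (18.3%) and above 1 in 1075 (6.70%) at an adjusted p under 0.05. Among the genes furthest below the sum were ZNF609 and C21orf91 (both -4.66), IRF2 (-4.64) and KAT14 (-4.37). IRF2 had 14.9, 12.6 and 14.2 CPM with lapatinib alone, 15.7, 14.8 and 13.8 CPM with THZ531 alone and 0.426, 0.624 and 0.701 CPM with both, against 14.9, 13.5 and 14 CPM in DMSO. At these doses the single agents lay around the DMSO libraries, and the combination lay far below them. The fall was not particular to the combination. With THZ531 alone at 1.0 µM IRF2 had 3.04, 1.63 and 2.525 CPM (log2 FC -2.56 against DMSO, adjusted p = 5.04e-11). Furthest above the sum were SNX32 (3.98), RASD1 (3.27), FOS (3.04), CSKMT (2.79), which overlaps LBHD1 and a snoRNA gene, and JUNB (2.78). JUNB had 32.1, 30.3 and 31.5 CPM with lapatinib alone and 43.0, 42.8 and 45.6 CPM with THZ531 alone.

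By list, the interaction was below -1 in 284 of 455 ZNF genes, 18 of 34 genes of homologous recombination and Fanconi anemia and 9 of 24 genes of mitosis. It was above 1 in 13 of 27 immediate-early genes and in 16 of 39 histone genes. Among all tested genes the interaction was below -1 in 18.3% and above 1 in 6.70%. Not every list held many such genes. For 27 transcriptional CDKs and partners 2 were below -1 and 2 above 1, and for 52 translation initiation factors 3 were below and 0 above. The ATF4 list lay on the other side of its own change, with a median log2 FC of 0.28 and a median interaction of -0.33. TRIB3, a pseudokinase induced by ATF4, had 19.4, 18.8 and 20.2 CPM in DMSO, 53.5, 41.4 and 38.1 CPM with lapatinib alone and 13.2, 12.9 and 11.5 CPM with the combination, and its interaction was -2.03 (adjusted p = 0.000215). For HSPA5 the interaction did not pass the test, at 0.41 (adjusted p = 0.18) and a 95% confidence interval of -0.14 to 0.96, and with lapatinib alone its change was already called (log2 FC 1.07, adjusted p = 0.017). For MKI67 the interaction was -0.32 (adjusted p = 0.67).

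**Figure D3:**
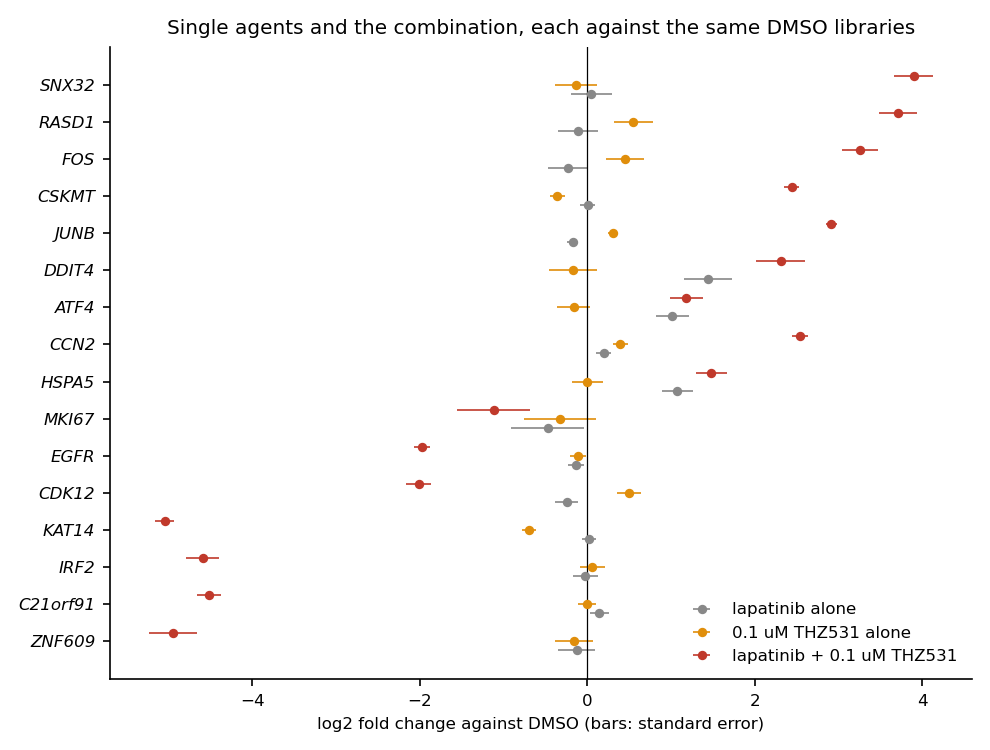
Log2 fold change against DMSO (horizontal axis, bars are standard errors) of 16 genes with lapatinib alone (grey), THZ531 alone at 0.1 µM (orange) and the combination (red). For the 4 genes at the bottom and the 5 at the top the single agents lie between -1 and 1 and the combination beyond -4 or 2, whereas for ATF4 and HSPA5 lapatinib alone comes close to the combination.

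A dose of THZ531 10 times as high, without lapatinib, was compared directly with the combination, since comparisons of each with DMSO share the DMSO libraries. The doses of THZ531 differ between these groups. Between the combination and 1.0 µM THZ531, 2589 genes were lower (16.1%) and 2049 higher (12.8%) with the combination at any size. FOS reached 52.1, 75.4 and 35.5 CPM with 1.0 µM THZ531 and was lower with the combination (log2 FC -2.08, adjusted p = 3.11e-07). CCN2 reached 488, 365 and 438 CPM and was higher with the combination (log2 FC 1.02, adjusted p = 2.02e-07). ATF4 had 79.3, 71.4 and 73.8 CPM with 1.0 µM THZ531 and was higher with the combination (log2 FC 1.30, adjusted p = 5.23e-05). EGFR was lower with the combination than with 1.0 µM THZ531 (log2 FC -0.67, adjusted p = 2.86e-05), and so was KAT14 (log2 FC -1.16, adjusted p = 1.45e-06). The difference did not pass the test for POLR2D (log2 FC -0.14, adjusted p = 0.29) or CCNB1 (log2 FC 0.11, adjusted p = 0.31).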

How the data were processed

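RNA was sequenced from 21 libraries in 7 groups of 3, of which the 3 of lapatinib plus THZ531 and the 3 of DMSO form the main comparison. The authors aligned reads with HISAT2 2.1.0 to GRCh38 and deposited raw counts per gene made with featureCounts, whose version, annotation and treatment of read pairs were not given in the sources used here. Of the counts between 1 and 20, 61.6% to 65.0% were even in the 6 libraries, so both ends of a fragment may have been counted and low counts may stand for fewer fragments. Tests used edgeR 4.0.16 in R 4.3.3 on all 7 group means (filterByExpr, TMM, quasi-likelihood F test) with Benjamini-Hochberg adjustment over the genes tested. Genes were called at an adjusted p under 0.05 and a log2 FC beyond 1. The scripts were tested on simulated data. Named genes are the 10 largest falls and rises among protein-coding genes at a mean log2 CPM of 1 or more, the 10 called genes of highest CPM in each direction, the 5 furthest from additivity on each side, and members of the gene lists. Members and lists were chosen with earlier results of these data known. Gene positions, classes of gene and promoters are from RefSeq on GRCh38.p14, which matched 27745 of 28395 identifiers. Exon numbers and mature transcript lengths are from the canonical transcripts of GENCODE. Alternatives were other scalings, filters, DESeq2 1.42.0, glmTreat, a replicate block, halved counts and leaving out each library. Some genes that these rules name are not reported here. The nilotinib groups entered the fit only.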

Additional observations from a re-analysis of the deposited data

Results flagged for a closer look

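These results were singled out because the effect of adding one agent differed with the presence of the other, by the interaction test of the same fit. The interaction was below -1 in 2942 genes and above 1 in 1075 genes. Below the sum of the single agents, the values were -4.66 for ZNF609, -4.66 for C21orf91, -4.64 for IRF2 and -4.37 for KAT14. Above the sum they were 3.98 for SNX32, 3.27 for RASD1, 3.04 for FOS, 2.79 for CSKMT and 2.78 for JUNB. The genes were chosen from the most extreme of the tested genes, so their sizes are a description.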

How the results depend on the processing

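Scaling to the mitochondrially encoded mRNAs gave 6227 genes lower and 550 higher beyond a log2 FC of 1, 9366 lower and 850 higher at any size, and 5069 below and 449 above additivity. Library size alone gave 770 higher, 3357 higher at any size and 653 above additivity. Upper-quartile scaling gave 1733 above additivity. At least 10 counts in every library left 679 higher and 696 above additivity of 13447 genes tested, and glmTreat left 643 higher, 1876 below and 377 above additivity. All other alternatives kept these 6 counts within 1.5 times.

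All 8 shares by span class moved with library size alone, with the upper quartile and with the mitochondrial scaling. Only the class under 10 kb is given here, so the order of the classes under these scalings is not shown. Among protein-coding genes under 10 kb the share called lower was 22.4% with library size alone, 13.8% with the upper quartile, 29.7% with the mitochondrial scaling and 11.5% with no filter. The share called higher was 13.6% with RLE (relative log expression) scaling in edgeR, 7.50% with library size alone, 19.3% with the upper quartile, 5.37% with the mitochondrial scaling, 8.84% with no filter, 9.14% with at least 10 counts and 13.7% with DESeq2.

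Relative to the median of all genes, list medians with at least 10 counts in every library were -1.02 for homologous recombination, -0.69 for the checkpoint, 0.31 for ATF4 targets, -0.56 for aryl hydrocarbon receptor targets, 0.44 for HOX genes and 1.09 for histones. With halved counts they were -0.77 for the checkpoint, -0.15 for ERBB genes, 0.31 for ATF4 targets and -0.56 for aryl hydrocarbon receptor targets. The checkpoint median was -0.80 with no filter, and the ERBB median 0.10 with the groups of the contrast alone. When each library was left out in turn, medians ranged from -1.22 to -1.03 for homologous recombination, -0.80 to -0.74 for the checkpoint, -0.55 to -0.49 for G1/S control, -0.32 to -0.10 for ERK feedback, 0.27 to 0.33 for ATF4 targets, -0.046 to 0.15 for cytokines, 0.25 to 0.46 for HOX genes, 1.16 to 1.59 for histones, 0.69 to 0.86 for snoRNAs, 0.51 to 0.60 for their hosts and 0.026 to 0.21 for ABC transporters.

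Called directions turned with library size alone for ATM (-0.040), CCNK (-0.042) and DUSP6 (-0.038), and with the mitochondrial scaling for ATM (-0.39), CCNK (-0.40), DUSP6 (-0.39), EZH2 (-0.15), VIM (-0.17), CD68 (-0.14) and KRT8 (-0.022).

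With the replicate number as a block 3420 genes were lower and 1259 higher. Same-numbered libraries correlated in their deviations by 0.45, 0.52 and -0.48 over 7166 genes, so the numbers did not consistently pair the samples. DMSO replicate 2 correlated by 0.686 with replicate 3 of the combination, and DMSO replicate 3 by 0.655 with replicate 1. The remaining pairs of unlike number were negative, from -0.716 to -0.254. Deviations from a mean of 3 libraries constrain each other, and a pairing under other numbers was not tested.

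Replicate 1 of the combination and replicate 2 of DMSO stood apart in some genes, such as MKI67 and POLR2A. With 3 libraries a group, an exact permutation test of a single gene cannot go below p = 0.1. Among genes with few counts a fold change rests on little, as in the 121 raised genes with at most 3 counts in every DMSO library.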

Other observations

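By the class of gene in RefSeq, long non-coding RNAs were called higher in 308 and lower in 205 of 1405 tested, with a median log2 FC of 0.26, against 723 higher and 3093 lower of 13747 protein-coding genes. Of the long non-coding RNAs 812 overlap another gene of the table, and without strand the reads of both cannot be told apart. Small nuclear RNAs, the RNA parts of the spliceosome and of 7SK among others, were called higher in 19 of 24 and lower in 0, with a median log2 FC of 4.09. Their levels are not given here, and the libraries were made from polyA-selected RNA. Transcribed pseudogenes were called lower in 83 and higher in 62 of 433. For comparison, 21.3% of all tested genes were called lower and 7.90% higher.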
